A study of Mus musculus with 5 samples.

Results

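The genes described here are 49 mouse genes of the DNA damage response and of DNA repair, chosen as a functional list and grouped below by the kind of damage or the step they serve. Their signals were read on 5 Affymetrix arrays, hybridised with RNA of 4 medulloblastomas and 1 P5 cerebellum (P5 taken as postnatal day 5). A probe set carrying the symbol as its only gene was found for 48 of the 49, among 18193 genes with such a probe set on the array, and Xrcc2 is not analysed here. Each gene was represented by its brightest probe set over the 5 arrays. Bard1, the partner of Brca1, was too dim to test (mean signal 33.5 against a minimum of 100), so that 47 genes were compared; the dimmest of these, Rad54b, had a mean signal of 145.0.

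The title of the series names Cxcr6, a chemokine receptor, as mutated in mice, and an inhibitor of Smoothened, but genotype, treatment and sex are stated for none of the arrays and age for none of the tumours. Age and tissue therefore cannot be told apart. Nothing states that the 4 tumours came from separate mice, so the p-values measure the spread between these 4 samples, and the cerebellum has no replicate. The prefix of the titles is ken in medulloblastomas 1 and 2, and hmk on the other 3 arrays, and was treated as a possible batch. Of 8 markers of granule neuron precursors, the cells from which medulloblastomas of the Hedgehog type arise, Atoh1, Barhl1, Gli1 and Mycn read above the cerebellum in every tumour and Zic1, Neurod1 and Pax6 below it. Atoh1 was called higher (4178 to 9505 against 963, limma, adjusted p = 0.0336); the summed signals, carried mostly by Zic1 and Neurod1, were 48119 to 50754 per tumour and 48740.2 for the cerebellum. Probe sets at both ends of control transcripts, which report RNA degradation, gave medulloblastoma 1 the highest 3'/5' ratios: 1.45 for actin (other arrays 1.21 to 1.35) and 0.946 for Gapdh (0.731 to 0.824).

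Cells answer a DNA break or a stalled replication fork with the kinases Atm and Atr, which halt the cell cycle through Chek1 and Chek2 and recruit repair enzymes. Breaks are then mended by homologous recombination, which copies the sister chromatid and is active in dividing cells, or by end joining, which needs no template, while damaged bases, mispaired bases and bulky adducts are cut out by excision pathways. Granule neuron precursors divide rapidly in the postnatal cerebellum, and mice that lack Lig4, Xrcc4 or Brca2 in neural progenitors together with p53 are known to develop medulloblastoma.

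Promoters of 4 repair genes that read above the cerebellum in every tumour and hold an E2F type motif are shown with that of Ercc2, the gene furthest below it. E2F factors drive genes of the G1 to S transition. The sequences are RefSeq promoters of build GRCm38.p6, from 250 bases before to 50 bases after a gene's start, 5' to 3' on the gene's strand. Capitals mark TTTNNCGC (E2F type) or CCAAT (the box bound by NF-Y), on either strand, and no marked motifs overlap. Msh6 lies at chr17:87974800-87975099 on the plus strand, the Rad51c promoters at chr11:87404457-87404756 and chr11:87404905-87405204 on the minus strand, and Brca2 at chr5:150522371-150522670, Chek2 at chr5:110839733-110840032 and Ercc2 at chr7:19381767-19382066 on the plus strand.
Msh6: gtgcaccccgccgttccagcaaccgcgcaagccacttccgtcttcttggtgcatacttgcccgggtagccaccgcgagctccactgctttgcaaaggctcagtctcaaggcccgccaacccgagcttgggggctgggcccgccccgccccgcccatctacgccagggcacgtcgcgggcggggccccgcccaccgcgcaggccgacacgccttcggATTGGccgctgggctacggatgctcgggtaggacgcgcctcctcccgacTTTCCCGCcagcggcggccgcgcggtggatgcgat
Rad51c, promoter 1: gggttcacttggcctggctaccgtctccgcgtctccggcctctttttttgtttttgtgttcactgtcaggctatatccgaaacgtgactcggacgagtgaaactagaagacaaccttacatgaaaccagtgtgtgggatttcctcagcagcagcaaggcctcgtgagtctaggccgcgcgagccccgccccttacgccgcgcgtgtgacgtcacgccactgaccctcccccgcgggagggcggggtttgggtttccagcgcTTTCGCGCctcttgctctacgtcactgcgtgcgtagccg
Rad51c, promoter 2: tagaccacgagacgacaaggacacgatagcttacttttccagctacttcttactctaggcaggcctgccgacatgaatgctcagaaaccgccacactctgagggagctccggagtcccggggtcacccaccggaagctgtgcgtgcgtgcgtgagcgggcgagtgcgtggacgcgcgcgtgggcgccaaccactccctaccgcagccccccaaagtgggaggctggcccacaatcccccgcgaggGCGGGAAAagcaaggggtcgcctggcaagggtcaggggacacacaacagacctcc
Brca2: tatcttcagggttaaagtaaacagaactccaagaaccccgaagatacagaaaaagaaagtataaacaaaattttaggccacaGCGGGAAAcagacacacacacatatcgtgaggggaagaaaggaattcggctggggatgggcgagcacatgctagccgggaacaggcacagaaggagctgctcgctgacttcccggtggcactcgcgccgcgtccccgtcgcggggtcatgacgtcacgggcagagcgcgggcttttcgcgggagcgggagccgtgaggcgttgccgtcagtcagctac
Chek2: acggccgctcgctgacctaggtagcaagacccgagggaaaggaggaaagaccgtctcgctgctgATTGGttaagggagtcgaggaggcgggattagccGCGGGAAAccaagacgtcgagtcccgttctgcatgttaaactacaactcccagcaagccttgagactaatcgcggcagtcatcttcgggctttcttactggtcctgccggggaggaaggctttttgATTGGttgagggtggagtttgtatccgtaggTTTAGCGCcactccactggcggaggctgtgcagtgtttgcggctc
Ercc2: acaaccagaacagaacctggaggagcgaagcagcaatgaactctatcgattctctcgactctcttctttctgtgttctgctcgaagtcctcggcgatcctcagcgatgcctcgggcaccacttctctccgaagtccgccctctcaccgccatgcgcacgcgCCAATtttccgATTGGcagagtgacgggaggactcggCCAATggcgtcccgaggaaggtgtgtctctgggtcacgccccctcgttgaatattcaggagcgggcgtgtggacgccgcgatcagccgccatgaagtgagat

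A promoter was available for 38 of the repair genes, and 10 of these (26.3%) held TTTNNCGC, against 5.93% of 27025 genes of all kinds and 7.16% of 17491 protein-coding genes. The 10 were Chek2, Brca2, Bard1, Rad51c, Xrcc6, Fancg, Msh3, Msh6, Topbp1 and Mdc1. In Msh6 the match TTTCCCGC began 16 bases after the start, and in Rad51c TTTCGCGC began 12 bases after the start of promoter 1. CCAAT was found for 19 of 38 genes (50%, against 42.3% of protein-coding genes), with 3 matches in the Ercc2 promoter. TTTGAA, the core of the element known as CHR in promoters of genes of late cell-cycle phases, was found in Bard1 and Tdp1 (5.26%, against 18.5%). Base composition was not matched in these shares. Of the repair genes with a promoter, 4 of the 14 above the cerebellum in every tumour and 1 of the 6 below it in every tumour held the E2F type motif.

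Of the 47 genes, 31 had a mean difference above 0 and 16 below, and none passed the test. The median log2 difference of the 47 genes was 0.20, against -0.07 for all 14109 genes tested, and single genes ranged from -1.06 (Ercc2) to 1.12 (Msh6). All differences are on the scale log2(signal + 32) and are given with the standard error of the limma fit, n = 4 tumours and 1 cerebellum. No repair gene passed a Benjamini-Hochberg adjusted p of 0.05 over all genes, in either direction, where 0.489% of all genes did (0.312% higher and 0.177% lower). The smallest adjusted p was 0.229. At an unadjusted p under 0.05, 6 repair genes were higher (Msh6, Atm, Rad51c, Brca1, Tdp1 and Ung), where 7.72% of all genes were, and 1 was lower (Ercc2), where 7.44% were. Without a variance trend limma called none of the 14109 genes; 4 repair genes had an unadjusted p under 0.05 there, where 14.2% of all genes did. With 4 arrays against 1, the smallest p of an exact permutation test is 0.2.

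Counted without a test, 17 of the 47 genes (36.2%) read above the cerebellum in all 4 tumours, against 25.1% of all genes, and 7 (14.9%) below it in all 4, against 30.8%. Scaling the arrays to equal medians raised the median of all genes from -0.07 to 0.12, and these counts were then 26 (35.3% of all genes) and 1 (20.04%). Relative to the median of all genes that of the repair genes was 0.27 higher, a difference that scaling hardly touches since it moves all genes of an array alike. Without medulloblastoma 1 the counts were 26 (32.3% of all genes) and 8 (37.8%). Signals of markers of other cell types differed too: summed signals of 8 microglia and macrophage markers were 20149.7 to 26344 per tumour and 6255 for the cerebellum, with all 8 above it in every tumour. Of these, C1qa, Ctss, Tyrobp and Lyz2 were called higher. The sums of 7 astrocyte and Bergmann glia markers were 16197 to 21079 and 62522, with 5 below the cerebellum in every tumour (Aldh1l1 and Aqp4 called lower), S100b above it in every tumour and Gfap on both sides. Those of 6 endothelial markers were 1787 to 2371 and 5313, with all 6 below it in every tumour. No marker was listed at 0, fewer cells of a type and less RNA per cell cannot be told apart here, and the part of these cells in the differences of repair genes was not tested.

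**Figure D1:**
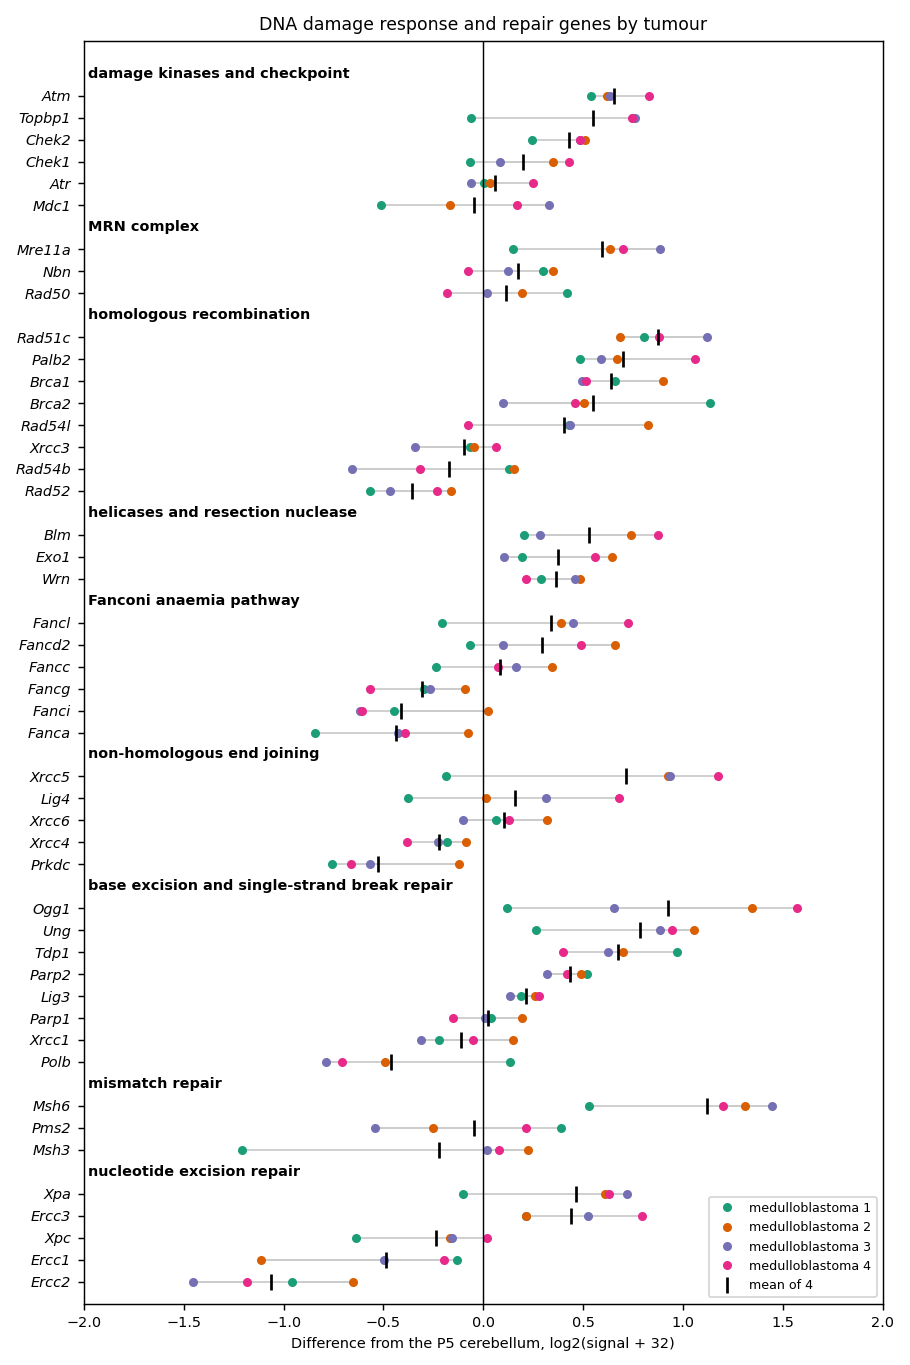
Difference of each tumour from the P5 cerebellum on the log2(signal + 32) scale for 47 DNA damage response and repair genes, grouped by role; coloured points are the 4 medulloblastomas and the black bar is their mean. Msh6 and Ercc2 have the largest mean differences (1.12 and -1.06), and medulloblastoma 1 lies apart from the others in genes such as Topbp1, Xrcc5 and Msh3.

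Among the mismatch repair genes, Msh6 stood furthest above the cerebellum of all 47 repair genes. Its protein recognises single mispaired bases. It read 1078, 1878, 2061 and 1734 in medulloblastomas 1 to 4 and 737 in the cerebellum. Every tumour was above the cerebellum and medulloblastoma 1 was the lowest of them; the log2 difference was 1.12 ± 0.36 (limma, adjusted p = 0.229). Msh3, which replaces Msh6 at small insertion loops, did not share this pattern. On its brightest probe set Msh3 read 141, 435, 372 and 389 against 367. There medulloblastomas 2 to 4 were near the cerebellum and medulloblastoma 1 far below it (-0.22 ± 0.56, adjusted p = 0.874). The next brightest Msh3 probe set had every tumour below the cerebellum, at 162, 175, 117 and 198 against 266 (-0.63). Dimmer Msh3 probe sets were at -0.27 and 0.07, with medulloblastoma 4 alone above the cerebellum on each. Pms2 encodes a subunit of the endonuclease that follows mismatch recognition. On its brightest probe set Pms2 read 905, 569, 460.1 and 799 against 684, with tumours on both sides (-0.05 ± 0.39). The next brightest Pms2 probe set had every tumour below the cerebellum, at 263, 218, 323 and 237 against 359 (-0.43). The dimmest was at 0.18, with medulloblastoma 3 alone below the cerebellum.

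The genes of base excision and single-strand break repair included Ung, Tdp1 and Ogg1 above the cerebellum in every tumour, and Polb below it in all but medulloblastoma 1. Ung, the glycosylase that removes uracil from DNA, read 829, 1459, 1294 and 1349 against 686 (0.79 ± 0.34, adjusted p = 0.326). Tdp1, which frees DNA ends from trapped topoisomerase I, read 1355, 1117, 1059.8 and 903 against 676 (0.67 ± 0.29, adjusted p = 0.323). In both genes no tumour reached down to the cerebellum, but medulloblastoma 1 was the lowest tumour for Ung and the highest for Tdp1. Ogg1, the glycosylase for oxidised guanine, read 149, 392, 230.4 and 463 against 135 and differed 0.92 ± 0.58 (adjusted p = 0.473), while a second probe set of Ogg1 differed by 0.12. Polb, the polymerase that fills the gap after base removal, read 1782, 1140.5, 924 and 979.9 against 1620.0 (-0.46 ± 0.37, adjusted p = 0.567). Medulloblastoma 1 was slightly above the cerebellum and the other tumours below it. The third probe set of Polb shared this split, at 1111, 667, 575 and 709 against 1011, while on the second every tumour was below the cerebellum (864, 828, 1036 and 781 against 1088). Parp2 read 1204, 1179, 1044 and 1120.5 against 831 (0.43 ± 0.24), and its relative Parp1, the main enzyme that marks broken DNA with poly(ADP-ribose), read 3438, 3839, 3368 and 3011 against 3351 (0.02 ± 0.22). The second probe set of Parp1 had every tumour above the cerebellum, at 2794, 2765, 2587 and 3009 against 2169 (0.36). The ligase gene Lig3 (0.22 ± 0.25) and its partner Xrcc1 (-0.11 ± 0.29) lay close to the cerebellum.

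Nucleotide excision repair held the gene furthest below the cerebellum. Ercc2, also known as Xpd, is a helicase of the transcription factor TFIIH that opens DNA around a bulky adduct. It read 546, 682, 377 and 461 against 1088 (-1.06 ± 0.35, adjusted p = 0.241). All tumours lay well below the cerebellum, with medulloblastoma 3 the lowest. Ercc1, a subunit of the nuclease that cuts on the 5' side, read 1399, 692, 1077 and 1335 against 1536 (-0.49 ± 0.38), but its second probe set, at 734, 1144, 1335 and 912 against 875, differed by 0.19. Xpa, which verifies the damage, read 207, 359.6, 391 and 365 against 225 (0.46 ± 0.42), below the cerebellum in medulloblastoma 1 and above it in the other tumours. Ercc3, the other helicase of TFIIH, was on the opposite side, at 412, 412, 518 and 631 against 351 (0.44 ± 0.34, adjusted p = 0.564). The damage sensor Xpc read 323, 460.4, 463 and 528 against 520.2 (-0.24 ± 0.34).

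In homologous recombination, Rad51c, Palb2, Brca1 and Brca2 read above the cerebellum in all 4 tumours. Rad51c, a paralog of the recombinase, read 363, 332, 459 and 383 against 194 (0.87 ± 0.34, adjusted p = 0.291). Palb2, which joins Brca1 to Brca2, read 419, 480.3, 452 and 638 against 290.0 (0.70 ± 0.33, adjusted p = 0.363). On these probe sets the tumours were close to each other for both genes and the cerebellum lay below them all. A dimmer second probe set of Rad51c had tumours on both sides, at 464, 118, 59.1 and 78.8 against 109. With both averaged the difference of Rad51c was 0.55 (limma, adjusted p = 0.624). Brca1, which promotes recombination at breaks, read 1234, 1465, 1098 and 1112 against 771 (0.64 ± 0.27, adjusted p = 0.314). Its next brightest probe sets also had every tumour above the cerebellum, with 336, 726, 782 and 675 against 293 on one and 266, 474, 612 and 530.1 against 197 on the other. The dimmest Brca1 probe set was opposite, at 271, 247, 65.8 and 191 against 391. Brca2, which loads the recombinase onto DNA, read 1567, 1003, 749 and 971 against 697 (0.55 ± 0.38, adjusted p = 0.512), with medulloblastoma 1 far above the others and medulloblastoma 3 near the cerebellum. Rad54l, a motor protein that helps strand exchange, read 749, 995, 751 and 518 against 548 (0.40 ± 0.36). Its second probe set had every tumour above the cerebellum (0.47). The third had medulloblastoma 1 below it (0.28), and the dimmest was at -0.79. Rad52, Rad54b and Xrcc3 had differences of -0.36 ± 0.33, -0.17 ± 0.55 and -0.10 ± 0.30, and of these Rad52 was below the cerebellum in every tumour. Second probe sets of Rad52 (0.60) and Xrcc3 (0.57) went the other way, with every tumour above the cerebellum. Bard1, left out of the test, read 4.05, 61.2, 10.7 and 75.1 against 16.3.

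On their brightest probe sets the helicases and the resection nuclease were above the cerebellum in every tumour by small amounts. Blm, the helicase that dissolves crossed strands, read 439, 650.2, 465 and 717 against 376 (0.53 ± 0.36, adjusted p = 0.504). Exo1, which trims broken ends and mismatched strands, read 629, 872, 588 and 819 against 546 (0.37 ± 0.32). Its second probe set had medulloblastoma 1 below the cerebellum, at 236, 468, 436 and 439 against 298 (0.33). Wrn, a helicase related to Blm, read 383, 442, 434 and 362 against 307 (0.36 ± 0.31). Dimmer probe sets of Wrn differed by 1.92 and -0.83. On the brightest probe sets medulloblastomas 2 and 4 were the highest in Blm and Exo1, and medulloblastomas 2 and 3 in Wrn.

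Of the kinases and checkpoint genes, on their brightest probe sets, Atm and Chek2 were above the cerebellum in every tumour, and Atr lay close to it. Atm, the kinase that responds to double-strand breaks, read 1004, 1060.4, 1072 and 1234 against 680.1 (0.66 ± 0.25, adjusted p = 0.289). Its second probe set gave a like difference (0.69) but with medulloblastoma 1 below the cerebellum, at 565, 904, 1135 and 1449 against 584. Chek2, a kinase activated by Atm, read 580.3, 702, 691 and 690.3 against 484 (0.43 ± 0.28, adjusted p = 0.481). Atr, the kinase of stalled forks, read 561, 574, 535 and 671 against 559 (0.06 ± 0.28), and its effector Chek1 read 516, 700.5, 578 and 742 against 543 (0.20 ± 0.31). The second probe set of Atr had every tumour above the cerebellum (0.68) and the dimmest had every tumour below it (-0.35). Those of Chek1 next in brightness had every tumour above it (0.38 and 0.53). Topbp1, which activates Atr, split the tumours: it read 1914, 1927 and 1902 in medulloblastomas 2 to 4, and 1076 in medulloblastoma 1 against 1124 in the cerebellum (0.55 ± 0.36, adjusted p = 0.489). A dim second probe set of Topbp1 was below the cerebellum in every tumour (-1.64), and with both averaged the difference was -0.55. Mdc1, a scaffold at marked breaks, read 745, 957, 1360.1 and 1213 against 1077, below the cerebellum in the ken tumours and above it in the hmk tumours (-0.05 ± 0.35). In the complex that senses broken ends, Mre11a was above the cerebellum in every tumour (304, 439, 527 and 461 against 271, 0.59 ± 0.37), whereas Rad50 (0.11 ± 0.30) and Nbn (0.17 ± 0.30) had medulloblastoma 4 below it. A dim second probe set of Mre11a differed by -0.52.

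End joining and the Fanconi anaemia pathway, which unhooks crosslinked strands, held no gene whose brightest probe set was above the cerebellum in every tumour. Second probe sets of Xrcc4, Fancd2 (0.82) and Fancg (0.33) had every tumour above it. The third probe set of Fancc (-1.31) and a dim second one of Fancl (-1.06) had every tumour below it. Xrcc5 encodes Ku80, which with the Xrcc6 product Ku70 forms the ring that caps broken ends. It read 391, 881, 889.9 and 1057 against 449.7 (0.71 ± 0.49, adjusted p = 0.511), near the cerebellum in medulloblastoma 1 and well above it in the other tumours. Prkdc, the kinase recruited by Ku, read 307, 494, 354 and 329.6 against 541, below the cerebellum in every tumour (-0.53 ± 0.35, adjusted p = 0.500). Xrcc6 did not show this split, at 743, 895, 660.2 and 778 against 710.0 (0.10 ± 0.28). For end ligation, Lig4 (148, 203, 258 and 342 against 201) and its partner Xrcc4 (284, 306, 275 and 243 against 327) had differences of 0.16 ± 0.49 and -0.22 ± 0.35, but a second probe set of Xrcc4 was 1.11 above the cerebellum. In the Fanconi pathway the core complex gene Fanca read 452, 792, 614 and 630.1 against 838, below the cerebellum in every tumour (-0.44 ± 0.34, adjusted p = 0.557), and its second probe set had a like mean difference (-0.50). Fanci and Fancd2, whose products are ubiquitylated together at a crosslink, differed in sign on their brightest probe sets. Fanci read 436, 617, 384 and 387 against 606 (-0.41 ± 0.35), with medulloblastoma 2 alone above the cerebellum. A dim second probe set of Fanci was at 0.02, with tumours on both sides. Fancd2 read 474, 803, 535 and 711 against 497 (0.30 ± 0.35), with medulloblastoma 1 alone below it. Fancl, the ubiquitin ligase gene of the pathway, read 519, 802, 837 and 1019.8 against 604 (0.34 ± 0.37), and Fancc differed by 0.09 ± 0.33; in both, medulloblastoma 1 was below the cerebellum and the other tumours above it, though with all probe sets averaged Fancl was at -0.36 and Fancc at -0.47. Fancg, another core complex gene, read 564, 654, 576 and 462 against 699, with no tumour reaching the cerebellum (-0.30 ± 0.30).

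**Figure D2:**
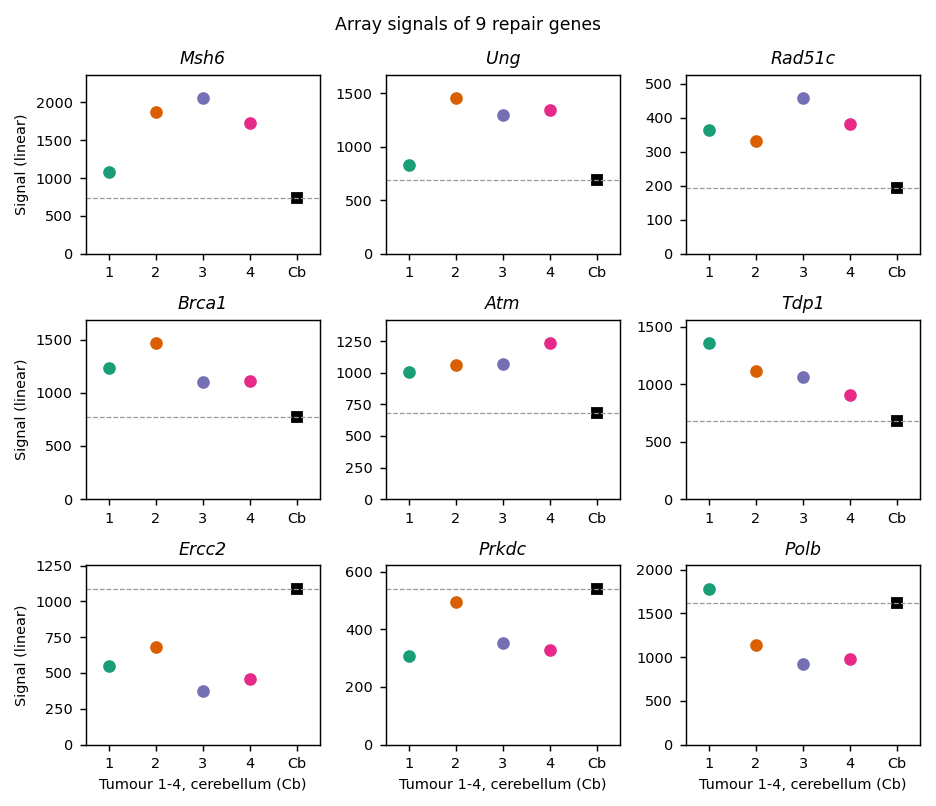
Linear array signal of 9 repair genes in medulloblastomas 1 to 4 (coloured circles) and the P5 cerebellum (black square, Cb), with the dashed line at the cerebellum signal and every axis starting at 0. Msh6, Ung, Rad51c, Brca1, Atm and Tdp1 lie above the line in all 4 tumours, Ercc2 and Prkdc lie below it in all 4, and Polb lies above it in medulloblastoma 1 alone (1782 against 1620.0).

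The repair genes were also divided by whether they are known to be regulated with the cell cycle. The 12 tested genes of this kind ranged from -0.44 (Fanca) to 1.12 (Msh6), with a median log2 difference of 0.46. Above the cerebellum in every tumour were 6 (50%), among them Brca1, Ung and Blm, against 25.1% of all genes. Fanca and Fanci (-0.41) had negative differences. The other 35 repair genes, which were not shown to lack such regulation, had a median of 0.10. Of these, 11 (31.4%) were above in every tumour, near the share of all genes. In medulloblastoma 3 the medians of both groups were 0.19 and 0.12. For 19 replication and proliferation genes the median was 0.72 and 16 (84.2%) were above in every tumour. The differences between these lists were not tested. Of the proliferation list, the helicase subunit genes Mcm4 (1.32 ± 0.29) and Mcm2 (1.16 ± 0.31) and the polymerase gene Pola1 (1.17 ± 0.35) differed the most and none of the 19 was called (smallest adjusted p = 0.109). A second probe set of Mcm2 was at -0.10.

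**Figure D3:**
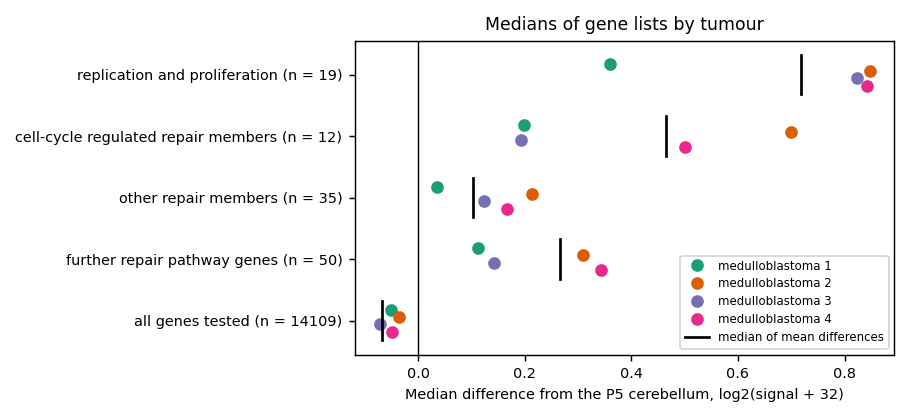
Median difference from the P5 cerebellum, on the log2(signal + 32) scale, of 5 gene lists; coloured points are the medians in medulloblastomas 1 to 4, which share the cerebellum array, and the black bar is the median of the mean differences. The bars run from 0.72 for replication and proliferation genes to 0.46 for the repair genes listed as cell-cycle regulated, 0.10 for the other repair genes and -0.07 for all genes.

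The other genes of the pathway gave 1 called gene. Of 63 further repair genes listed, 50 were tested, with a median of 0.27. Of these, 20 (40%) read above the cerebellum in every tumour and 9 (18%) below it, against 25.1% and 30.8% of all genes. In the test 1 was called higher and none lower, where 0.312% and 0.177% of all genes were. At an unadjusted limma p under 0.05, 8 were higher and 2 lower, where 7.72% and 7.44% of all genes were. The called gene was Rif1, which shields broken ends from resection and times replication origins. It read 2025, 2029, 2009 and 2047 against 746, so that the tumours were almost equal and the cerebellum far below (1.40 ± 0.22, limma, adjusted p = 0.0468). The next brightest probe sets of Rif1 differed by 0.67 and 0.81 and the dimmest by -0.06. The call was lost with Rif1 probe sets averaged (0.71, adjusted p = 0.287), without probe sets that can bind related transcripts (0.67, adjusted p = 0.340), and with no change in its size (1.40 to 1.41) without medulloblastoma 2, 3 or 4 (adjusted p = 0.179, 0.113 and 0.147), with the ken tumours (0.151), with no filter on signal (0.0584) and without a variance trend (0.133). Few genes were called in several of these fits: 2, 16 and 0 of all genes without medulloblastoma 2, 3 and 4, and 0 without the trend.

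Other damage signalling genes with large differences were Tipin and Clspn. Tipin, of the complex that steadies the fork, read 2181, 2699.6, 3121 and 3269 against 1418 (0.96 ± 0.27, adjusted p = 0.186). Clspn, the adaptor between Atr and Chek1, read 870.1, 1261, 1138 and 1409.5 against 639 (0.82 ± 0.31, adjusted p = 0.280). Both had all tumours above the cerebellum and medulloblastoma 1 the lowest. Pms1, a relative of Pms2, read 359.6, 503, 442 and 492 against 106 (1.79 ± 0.34, adjusted p = 0.0844), and the glycosylase gene Mbd4 read 542, 624, 709 and 883 against 349 (0.90 ± 0.33). In the recombination and crosslink list Rad18 (1.04 ± 0.72), Fancm (1.01 ± 0.63) and Fancf (0.98 ± 0.28) differed the most by their brightest probe sets. Other probe sets gave -0.20 and -1.36 for Fancm and 0.05 and 0.02 for Fancf. Rad18 read 139 in medulloblastoma 1 and 527 to 714 in the other tumours against 187. On the lower side were Polm, an end joining polymerase, at 164, 83.1, 85.1 and 37.2 against 412 (-1.93 ± 0.68, adjusted p = 0.256), and the glycosylase gene Mpg, at 321, 30.9, 60.2 and 197 against 599 (-2.10 ± 0.90, adjusted p = 0.326). The end joining genes next in size were Polq (0.53 ± 0.58) and Aptx (-0.26 ± 0.35).

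Medulloblastoma 1 differed from the other tumours in many repair genes. It was the lowest tumour for 22 of the 47 genes (46.8%), against 32.8% of all genes, and the highest for 7 (14.9%), against 30.9%. On the log2 scale medulloblastoma 1 minus the mean of the others was -1.32 for Msh3, -1.20 for Xrcc5, -1.07 for Ogg1 and -0.81 for Topbp1. The opposite order was seen in Polb (0.80) and Brca2 (0.78). In 4 of the 47 genes 1 tumour lay far from the other 3 relative to their range on the brightest probe set. Of all genes, 5.8% had such a tumour. In all 4 (Topbp1, Chek2, Msh3 and Xpa) it was medulloblastoma 1 on the low side, as in 1.58% of all genes. On second probe sets of Msh3 and Xpa another tumour was the lowest. Replication and proliferation genes were also lowest in medulloblastoma 1 in 14 of 19 cases. The same array had the highest signal for 7 of 8 markers of mature neurons, whose sum was 41264 there and 16602 to 24270.4 in the other tumours. It was also highest for all 4 measured Purkinje cell markers (26983 against 6041 to 15159). The sum of 5 oligodendrocyte markers, carried mostly by Mbp (28288 in medulloblastoma 1), was 34809 there and 13283 to 17288 in the other tumours. Of the 5, 3 were highest in medulloblastoma 1, Mog was highest in medulloblastoma 4, and Olig1 was lowest in medulloblastoma 1. The array of medulloblastoma 1 also had the highest 3' to 5' ratios. The part of cell makeup or RNA quality in these repair gene values was not tested.

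**Figure D4:**
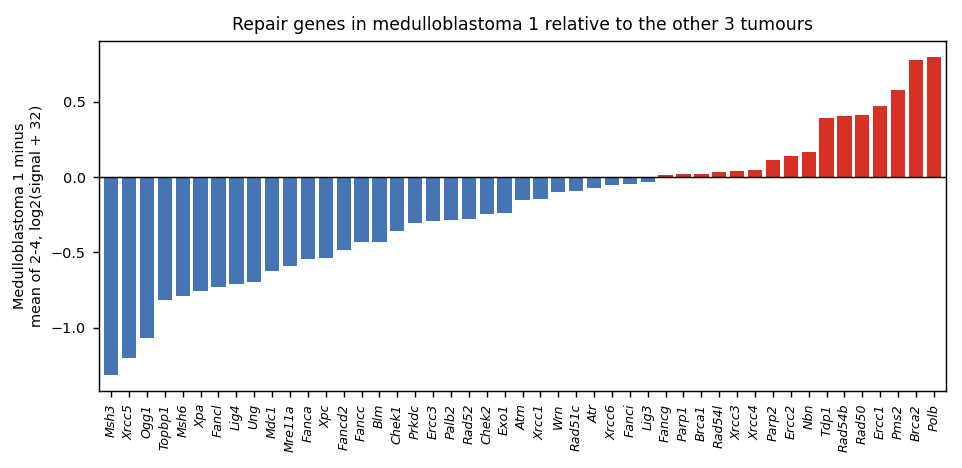
Difference between medulloblastoma 1 and the mean of medulloblastomas 2 to 4 on the log2(signal + 32) scale, for 47 repair genes in rising order; blue bars are below 0 and red bars above. Msh3, Xrcc5 and Ogg1 stand more than 1 below the other tumours, and Polb and Brca2 stand furthest above.

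Leaving out medulloblastoma 1 brought 2 repair genes past the threshold. Msh6 then differed by 1.32 ± 0.22 (limma, adjusted p = 0.0150) and Ung by 0.96 ± 0.23 (adjusted p = 0.0470). Of all genes 3.18% were called higher and 2.71% lower in that fit, so that 2 of 47 is near the background. Leaving out another tumour called no repair gene and hardly any gene at all (0.0142% of all genes higher and none lower without medulloblastoma 2, 0.0709% and 0.0425% without 3, and none without 4). Within the hmk arrays alone, where the spread comes from a pair of tumours, Msh6 (1.32 ± 0.24, adjusted p = 0.00594), Ung (0.91 ± 0.25, 0.0387), Xrcc5 (1.06 ± 0.29, 0.0377) and Topbp1 (0.75 ± 0.22, adjusted p = 0.04999) were called higher and Ercc2 lower (-1.32 ± 0.32, adjusted p = 0.0229), where 5.93% and 5.96% of all genes were. With the ken tumours against the same cerebellum no repair gene was called, and 0.149% of all genes were called higher and 0.113% lower, so that none of 47 is what the background gives.

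Different probe sets of a repair gene often disagreed. Of 48 genes, 30 had several probe sets, up to 5, and 26 had a further one with a mean signal of at least 100. Of these 42 further probe sets, 26 lay on the same side of the cerebellum as the one used and 16 on the opposite side, in 14 genes. Probe sets on the same side included those of Atm, Brca1 (the brighter ones), Fancd2 (0.82 on the second) and Polb (all but the dimmest), while those of Ercc1, Xrcc4, Rad52 and Fancg (0.33 on the second) lay on the opposite side. Msh6, Ung, Tdp1, Palb2, Prkdc and Xrcc5 had a single probe set, which no other probe set of the array can check.

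**Figure D5:**
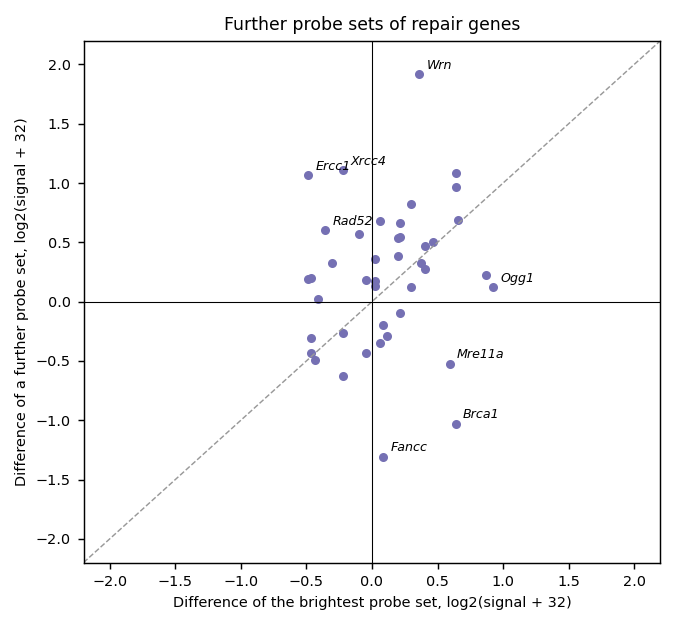
Log2(signal + 32) difference from the P5 cerebellum of the brightest probe set of a repair gene (horizontal axis) and of each further probe set with a mean signal of at least 100 (vertical axis); the dashed line marks equal values. Of the 42 points, 16 lie in the quadrants of opposite sign, and genes are named where both values differ by more than 0.8.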

How the data were processed

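Signals of 5 Affymetrix arrays were taken from the deposited value table as intensities on a linear scale, 1 per probe set. MAS5 made them, per the submitters' processing notes, with no version; for medulloblastoma 3 the tool is not given in the sources used here. RNA of medulloblastoma 4 was extracted by a manufacturer's standard protocol and the rest with Trizol, per the labels' protocols, and the submitters call the replicates too few for statistics. Arrays were grouped by the tissue in the labels, and tumours numbered in the order of the records. The arrays were not rescaled, since their mean after trimming 2% of probe sets at each end was 500.002 on each.

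Probe sets were named through the platform annotation: 34945 of 45101 had 1 symbol, 932 had several and were not used, and 64 were controls. All 48 measured repair genes were found by Entrez ID in RefSeq. The brightest probe set represented a gene, and 14109 of 18193 genes had a mean signal of at least 100. Log2(signal + 32) was fitted with limma 3.58.1 in R 4.3.3 (lmFit, eBayes with a variance trend, 3 residual and 5.02 prior degrees of freedom), two-sided, with Benjamini-Hochberg adjustment across the 14109 genes and a threshold of 0.05. The cerebellum is assumed to vary like the tumours, and the number of arrays limits the precision. The procedure was tested on simulated data. There the cerebellum was made to vary like the tumours, so that this assumption was not checked. The differences added were larger than those of any repair gene.

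Repair genes and lists were chosen with earlier results of these data known. Any repair gene could be named; of the further repair lists and the replication list, called genes and the 3 with the largest differences were named. Cell type markers were outside this rule, and those named were chosen after their values were seen. Alternatives were other scalings, constants, filters, probe set rules and variance models, the hmk or ken tumours alone, and each tumour left out.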

Additional observations from a re-analysis of the deposited data

Results flagged for a closer look

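In the 4 tumours, 4 of the 47 repair genes had 1 tumour far from the other 3, by the gap to its nearest neighbour relative to the whole range on the log2 scale; chance flags about 1 in 20 groups, and 5.8% of all genes on these arrays met the same criterion. Medulloblastoma 1 was the low one in each of the 4, as in 1.58% of all genes. Topbp1, the activator of Atr, read 1075.6 there and 1902 to 1927 in the others. Chek2, the checkpoint kinase, read 580.3 against 690.3 to 702. Msh3, the mismatch recognition gene, read 140.6 against 372 to 435, and the damage verifier gene Xpa 207 against 359.6 to 391. These values are of the brightest probe sets. The second probe set of Msh3 read 162, 175, 117 and 198 in medulloblastomas 1 to 4, and the third 123, 161, 188 and 217. Dim second probe sets read 165, 28.8, 195 and 63.3 for Xpa and 10.9, 144, 10.8 and 50.4 for Topbp1.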

How the results depend on the processing

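The median log2 difference of the repair genes stayed above that of all genes in every alternative run, by 0.22 to 0.36. It was 0.20, and 0.38 with equal medians. No repair gene was called in the alternatives other than the hmk arrays alone (4 higher, 1 lower) and leaving out medulloblastoma 1; leaving out 1 tumour gave 0 to 2 called higher and 0 called lower. Without medulloblastoma 2, 3 or 4 at most 0.0709% of all genes were called higher and at most 0.0425% lower, so that these counts of 0 say nothing about repair genes. The count above the cerebellum in every tumour (17, where 25.1% of all genes were) was 26 with equal medians (35.3% of all genes). It was 27 in the hmk arrays (37.6% of all genes) and 17 to 26 without 1 tumour (27.3% to 32.3%). Fewer tumours have to agree in these fits. The count below (7, where 30.8% of all genes were) was 1 with equal medians (20.04%) and 4 with all probe sets averaged (30.9%). It was 11 in the hmk arrays (44.0%) and 7 to 9 without 1 tumour (33.4% to 37.8%). Some genes changed sign. With equal medians Xrcc1 was at 0.0768, Xrcc3 at 0.0858, and Pms2 and Mdc1 at 0.14 each. With all probe sets averaged Rad52 was at 0.12, Xrcc3 at 0.24, Xrcc4 at 0.44, Rad50 at -0.0896, Fancc at -0.47, Fancg at 0.0126, Fancl at -0.36, Ercc1 at 0.11, Topbp1 at -0.55 and Fancm at -0.18. Without probe sets ending in x_at or s_at Ercc1 was at 0.19, and after quantile normalization Parp1 was at -0.11. In the hmk arrays Parp1 was at -0.0730, Rad50 at -0.0812, Msh3 at 0.0469 and Mdc1 at 0.25; with the ken tumours Rad54b was at 0.14, Lig4 at -0.18 and Pms2 at 0.0689. Without 1 tumour the ranges were -0.00668 to 0.10 for Atr, -0.0163 to 0.34 for Lig4, -0.0365 to 0.0792 for Parp1, -0.000497 to 0.19 for Fancc, -0.37 to 0.11 for Msh3, -0.19 to 0.12 for Pms2 and -0.17 to 0.11 for Mdc1. Beyond probe set choice, scaling and sample choice, the causes were not tested. No paired analysis was possible because there is 1 cerebellum.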

Other observations

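Some probe sets of repair genes that were not the brightest gave larger differences than the one used. A second probe set of Wrn, the helicase gene of Werner syndrome in humans, read 214, 199.5, 72.3 and 117 in medulloblastomas 1 to 4 against 13.7. Its log2 difference was 1.92, where the brightest gave 0.36 and the third, dimmer still, -0.83. Xrcc4, the partner of DNA ligase IV, read 220.2, 321, 237 and 410.4 against 117 on its second probe set (1.11) and lower than the cerebellum on its brightest (-0.22). The third probe set of Fancc, a Fanconi core complex gene, read 320.5, 258, 143 and 151 against 559.9 (-1.31). The second of Rad51c read 464 in medulloblastoma 1 and 59.1 to 118 in the other tumours, against 109 in the cerebellum. All 4 probe sets of the ubiquitin ligase gene Rad18 had a mean above the cerebellum, by 0.55 to 2.54 on the log2 scale, and each was lowest in medulloblastoma 1. The transcript forms that these probe sets detect were not known here.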
